A study of Mus musculus with 8 samples.

Results

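The genes described here are the components of the Wnt pathway and the markers of intestinal stem cells that the count table of this mouse colon RNA-sequencing study lists. Members were all symbols of the Wnt, Frizzled (Fzd), R-spondin (Rspo), secreted Frizzled-related (Sfrp), Dickkopf (Dkk), Lgr4 to Lgr6 and Axin families, together with Ascl2, Smoc2, Sox9, Tcf7, Lef1, Tcf7l2, Rnf43, Znrf3, Nkd1, Ctnnb1, Apc, Myc and Wif1. This rule used names and no measured value, but it was set with earlier results of these data known. It found 49 of the 15859 genes in the table, of which 41 had enough reads to be tested beside 14371 genes in all. The study asked how the stress-responsive transcription factor HSF1 shapes the colon during the passage from inflammation to cancer, and sequenced mRNA of whole distal colon from 8 male mice in 4 groups of 2. WT mice and their Hsf1 null littermates, on a mixed BALB/c x 129SvEV background, were either untreated (day 0) or had received AOM-DSS (day 15). In the treated groups azoxymethane (AOM), a colon carcinogen, was injected at 10 mg/kg at 8 weeks of age, and dextran sulfate sodium (DSS), which injures the colonic epithelium, was given at 1.5% in the drinking water for 5 days starting on day 7. The untreated mice are labelled as age-matched and were not injected. The sample labels give an age of 10 weeks for all mice, the series text gives a slightly lower one, and the treatment protocol places the end of the experiment after DSS without a date, so day 15 rests on the sample titles and the study's methods. Functional Hsf1 is missing from every cell from conception, so these samples do not say in which cells a difference arose, and in bulk tissue fewer cells of a type and less RNA per cell cannot be told apart.

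In the colonic crypt, Wnt ligands bind Frizzled receptors and stabilise beta-catenin (Ctnnb1), which enters the nucleus and switches on target genes together with factors of the TCF and LEF family (Tcf7, Lef1, Tcf7l1, Tcf7l2). R-spondins, acting through Lgr4, Lgr5 and Lgr6, strengthen the signal by removing Rnf43 and Znrf3, the ubiquitin ligases that clear Frizzled from the cell surface, whereas Sfrp, Dkk and Wif1 proteins are secreted inhibitors. The pathway keeps the stem cells at the base of the crypt dividing, and its overactivity through loss of Apc starts most colorectal tumours.

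Libraries held 2553348 to 12440257 counted reads, and the shallowest were WT day 0 replicate 2 and Hsf1 null day 0 replicate 2. Levels are given as CPM, a gene's reads relative to the library's total after TMM scaling, and at this depth 3 reads amounted to 0.246 to 1.19 CPM. The targeted gene followed its labels: Hsf1 stood at 36.5 to 50.4 CPM in the 4 WT mice and at 9.09 to 14.0 CPM in the 4 null mice, and counts per gene do not show which part of Hsf1 the remaining reads came from. All 12 epithelial markers listed (such as Epcam, Krt8 and Cdx2) had reads in every mouse. Replicates of a group correlated at r = 0.949 to 0.954 over the log2 CPM of the tested genes, and nothing in the labels says more of how the mice were housed or processed together. The fold changes below are log2 values ± standard error from edgeR's quasi-likelihood test with all 4 groups in 1 model, and a gene was called when its Benjamini-Hochberg adjusted p over all tested genes was under 0.05 and its log2 fold change exceeded 1 in size.

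Among the members, Fzd7 and Lgr4 fell with treatment in both genotypes, and at day 15 the genotypes differed in the receptor Fzd1, the inhibitors Sfrp1 and Sfrp2 and the nuclear factors Tcf7 and Tcf7l2. In this day 15 comparison of the genotypes, 5 of 41 members (12.2%) were called, against 3.17% of all tested genes. Of these, 4 were higher in WT (9.76%, against 1.25% of all genes) and 1 was lower (2.44%, against 1.91%). At day 0 the genotypes differed in 0 of 41 members by edgeR, with 2 members at an unadjusted p under 0.05 (against 6.29% of all genes) and 0 called by DESeq2, and 0% of all tested genes were called. This comparison did not call the targeted gene either (Hsf1, 1.57 ± 0.30, edgeR, adjusted p = 0.775), so its count of 0 does not show that the untreated genotypes were alike.

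From day 0 to day 15, WT mice had 6 of 41 members called (14.6%, against 7.74% of all genes), 5 of them lower (12.2%, against 4.27%) and 1 higher (2.44%, against 3.47%). Hsf1 null mice had 4 members called (9.76%, against 11.8% of all genes), all 4 lower (against 6.48%) and 0 higher (against 5.3%), so that the null count was below the share in all genes. The median log2 fold change of the members was -0.28 in WT and -0.38 in null mice, beside medians of 0.00 and 0.05 over all tested genes. The test of whether the change over time differed between genotypes called 0 members by edgeR, against 0.00696% of all genes, with 8 at an unadjusted p under 0.05, against 8.61% of all genes, and 1 called by DESeq2. A change called in only 1 genotype is therefore not shown to be particular to it. The comparisons share samples, since each group enters 2 pairwise comparisons and the test of the difference in change.

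**Figure D1:**
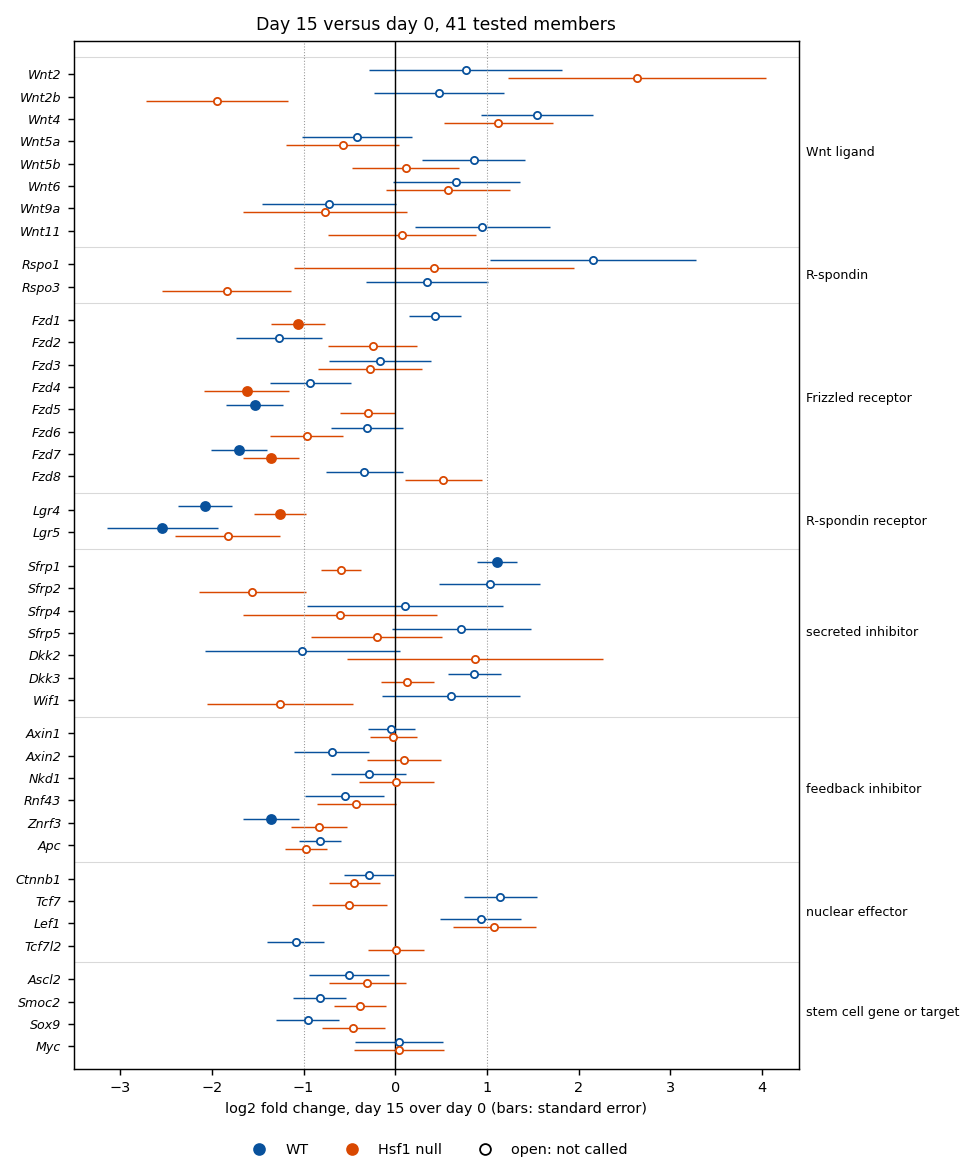
Change from day 0 to day 15 in the 41 tested members, grouped by role, with log2 fold change on the x axis, WT in blue, Hsf1 null in orange, bars for standard errors and filled points for called genes. Lgr4, Lgr5 and Fzd7 sit below -1 in both genotypes, whereas Sfrp1 lies at 1.11 in WT and -0.59 in null mice.

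Wnt ligands were scarce. Of the 12 in the table, 8 were tested and 0 were called in any comparison by edgeR, while DESeq2 called Wnt2b lower in treated than in untreated null mice. At an unadjusted p under 0.05 by edgeR there was 1 of 8 in the day 15 comparison and in each change over time, below the 23.2% of all genes at day 15, 27.6% in WT and 32.6% in null mice over time, and 0 of 8 at day 0, against 6.29%. Per kilobase of exon, Wnt4 had the highest mean level over the 8 mice, 3.17 CPM per kb, followed by Wnt5a at 1.72, Wnt2b at 1.40 and Wnt5b at 1.30. These differences in level are small beside the spread between mice, as Wnt4 ranged from 5.55 to 33.1 CPM.

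Wnt4, a ligand that can signal through and outside beta-catenin, was at 6.56 and 5.55 CPM in WT mice at day 0 and at 19.4 and 16.6 CPM at day 15. In Hsf1 null mice it stood at 9.36 and 8.98 CPM at day 0 and at 6.82 and 33.1 CPM at day 15. The WT groups did not overlap, and the null groups did. By edgeR the change was 1.55 ± 0.61 in WT (adjusted p = 0.138) and 1.12 ± 0.60 in null mice (adjusted p = 0.221), and the WT change passed when either treated null mouse was left out (adjusted p = 0.0254 and 0.0328). Wnt2b, a ligand made by stromal cells, was at 8.78 and 6.76 CPM in treated WT mice and at 1.09 and 2.81 CPM in treated null mice, without overlap, and its difference of 1.97 ± 0.75 did not pass (edgeR, adjusted p = 0.152). Untreated WT mice had 5.58 and 5.55 CPM of Wnt2b and untreated null mice 2.71 and 13.6 CPM, so the untreated null mice alone enclosed every WT value. The change in null mice, -1.94 ± 0.77, did not pass by edgeR (adjusted p = 0.114) and passed by DESeq2 (-2.01, adjusted p = 0.0484). Wnt11 (0.359 to 2.64 CPM), Wnt6 (0.718 to 2.02), Wnt9a (0.31 to 1.59) and Wnt2 (0 to 2.14) were close to the detection limit in at least 1 library. Wnt3, Wnt7b, Wnt9b and Wnt10a were under the count filter, with at most 1.07 CPM in any mouse.

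The R-spondins were as scarce. Rspo3, the main R-spondin of the crypt base stroma, was at 2.0 and 5.17 CPM in treated WT mice and at 1.86 and 0.935 CPM in treated null mice. In untreated mice it was at 3.33 and 1.98 CPM in WT and at 3.86 and 6.46 CPM in null mice. The null mice at day 15 were the lowest of the 8, and their change of -1.84 ± 0.71 did not pass (edgeR, adjusted p = 0.104). Rspo1 reached 5.22 and 1.27 CPM in treated WT mice against 0.686 and 0.794 CPM in untreated WT, 0.164 and 0.718 CPM in untreated null and 0 and 0.802 CPM in treated null mice, with a day 15 difference of 2.92 ± 1.15 (edgeR, adjusted p = 0.161). Rspo2 was under the count filter, with 0 to 1.48 CPM.

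Among the Frizzled receptors, which bind the Wnt ligands, 8 of 10 were tested and 7 of 8 had a negative change over time in each genotype. WT mice had 2 of 8 called, Fzd5 and Fzd7, against 4.27% of all genes called lower, and null mice had 3 of 8, Fzd1, Fzd4 and Fzd7, against 6.48%, all lower at day 15. Fzd9 and Fzd10 were under the count filter, with at most 0.794 CPM in any mouse.

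Fzd7 (chr1:59482424-59486955), a receptor of intestinal stem cells, was at 40.9 and 31.7 CPM in untreated WT mice and at 11.0 and 11.5 CPM after treatment. In Hsf1 null mice it went from 31.0 and 42.4 CPM to 12.7 and 15.8 CPM. All 4 treated mice lay below all 4 untreated mice. The change was -1.70 ± 0.31 in WT (edgeR, adjusted p = 0.0145) and -1.35 ± 0.30 in null mice (edgeR, adjusted p = 0.0248), and the difference between these changes was -0.35 ± 0.42 (edgeR, adjusted p = 0.841).

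Fzd5 (chr1:64730558-64737751), an epithelial receptor, was at 146 and 175 CPM in untreated WT mice and at 60.2 and 50.3 CPM after treatment, a change of -1.53 ± 0.31 (edgeR, adjusted p = 0.0206). In null mice it was at 123 and 138 CPM at day 0 and at 137 and 73.5 CPM at day 15, so that these groups overlapped (-0.30 ± 0.30, edgeR, adjusted p = 0.521). The difference between genotypes in this change was -1.23 ± 0.43 and did not pass (edgeR, adjusted p = 0.477).

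Fzd1 (chr5:4753839-4758035) was at 47.9 and 65.7 CPM in treated WT mice and at 17.5 and 22.3 CPM in treated null mice. Untreated mice of both genotypes overlapped, at 39.6 and 44.8 CPM for WT and at 35.0 and 48.8 CPM in null mice. Treated null mice were therefore the lowest of the 4 groups and treated WT mice nearly the highest, with 1 null value at day 0 (48.8) inside the treated WT range. The day 15 difference was 1.51 ± 0.29 (edgeR, adjusted p = 0.0310), and the fall in null mice was -1.06 ± 0.29 (edgeR, adjusted p = 0.0431). In WT the change was 0.43 ± 0.29 (edgeR, adjusted p = 0.357), and the difference in change of 1.49 ± 0.41 did not pass (edgeR, adjusted p = 0.400).

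Fzd4 (chr7:89404355-89413134), a receptor that also serves blood vessels, fell in null mice from 10.1 and 12.9 CPM to 4.19 and 3.21 CPM (-1.62 ± 0.47, edgeR, adjusted p = 0.0476). In WT it went from 13.4 and 10.7 CPM to 8.43 and 4.33 CPM without passing (-0.93 ± 0.45, edgeR, adjusted p = 0.207). Every treated mouse lay below every untreated mouse for Fzd4. The Fzd4 call in null mice was lost in 10 of 17 alternative analyses, with adjusted p from 0.0243 to 0.329. Summed endothelial markers were 55.5 and 121 CPM in these treated null mice and 241 and 218 CPM in treated WT mice, against 88.9 to 148 CPM at day 0, and their part in the Fzd4 change was not tested. Fzd2, Fzd3, Fzd6 and Fzd8 were called in no comparison.

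The makeup of the receptor family within each mouse does not depend on library scaling. Fzd5 gave 38.4% and 44.0% of the summed Frizzled CPM per kb in untreated WT mice and Fzd1 gave 17.2% and 18.5%. In treated WT mice the order was turned round, with Fzd5 at 25.9% and 22.5% and Fzd1 at 33.9% and 48.3%. In treated null mice Fzd5 remained the leading receptor, at 58.5% and 38.9%, and Fzd1 gave 12.3% and 19.4%. Fzd1 was the leading Frizzled in the treated WT mice and Fzd5 in the other 6 mice, a description of 8 libraries without a test. The family total was 27.4 to 33.9 CPM per kb in the 4 treated mice and 42.7 to 57.7 in the 4 untreated mice.

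**Figure D2:**
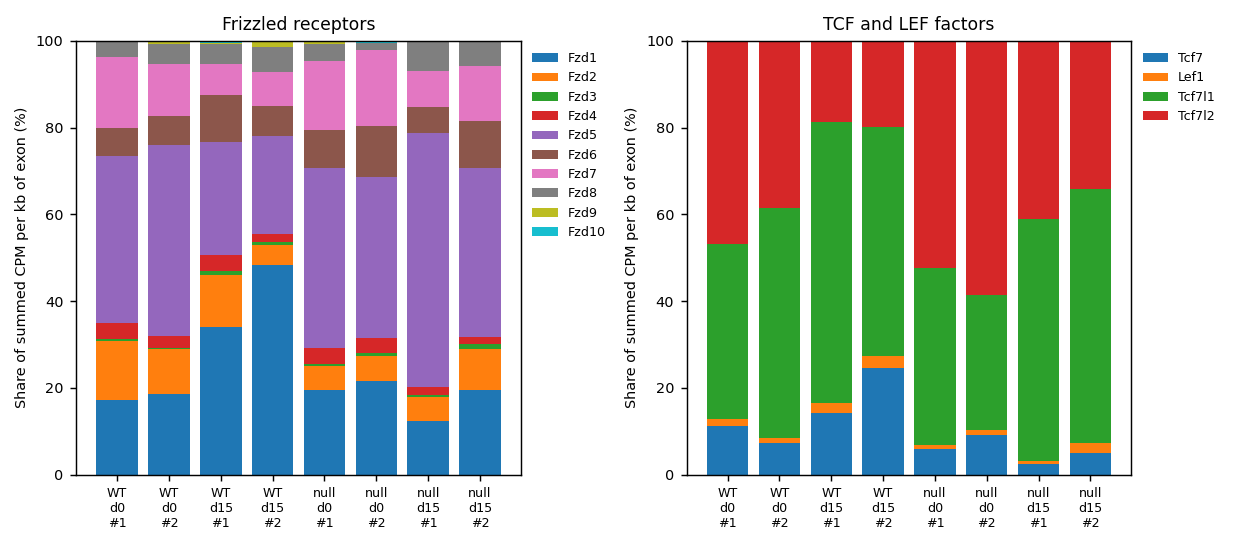
Share of each gene in the summed CPM per kilobase of exon of its family, 1 bar per mouse, for the Frizzled receptors (left) and the TCF and LEF factors (right), in percent. In the 2 treated WT mice Fzd1 takes 33.9% and 48.3% of the receptors and Tcf7 takes 14.1% and 24.6% of the factors, more than in any other mouse.

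In WT mice the R-spondin receptors gave the largest falls among the called members. Lgr4 (chr2:109917647-110014257), which is expressed throughout the crypt, was at 238 and 220 CPM in untreated WT mice and at 65.9 and 42.7 CPM after treatment. In null mice it went from 254 and 296 CPM to 135 and 95.4 CPM. Every treated mouse lay below every untreated mouse, and both treated WT mice lay below both treated null mice. The change was -2.08 ± 0.29 in WT (edgeR, adjusted p = 0.00682) and -1.26 ± 0.28 in null mice (edgeR, adjusted p = 0.0248). The day 15 difference of -1.08 ± 0.28 just missed by edgeR (adjusted p = 0.0646) and passed by DESeq2 (adjusted p = 0.0148), and the difference in change was -0.82 ± 0.39 (edgeR, adjusted p = 0.608).

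Lgr5 (chr10:115450311-115587780), the marker of the cycling crypt base stem cell, was counted rarely, with 7 to 90 reads per library. It was at 5.68 and 3.57 CPM in untreated WT mice and at 0.869 and 0.739 CPM after treatment, a change of -2.54 ± 0.61 (edgeR, adjusted p = 0.0334). In null mice it went from 7.39 and 6.11 CPM to 1.24 and 2.54 CPM (-1.83 ± 0.57, edgeR, adjusted p = 0.0593). The WT call was lost in 10 of 17 alternatives (edgeR and DESeq2, adjusted p from 0.0130 to 0.172). All 4 treated mice again lay below all 4 untreated mice. Lgr6 was under the count filter, at most 0.633 CPM. Per kilobase Lgr4 averaged 28.6 CPM over the 8 mice and Lgr5 0.343 CPM.

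The summed level of the 12 epithelial markers was 10928 and 15957 CPM in untreated WT mice and 16354 and 17471 CPM in treated WT mice, and 18229 and 11957 CPM against 25936 and 22181 CPM in null mice. Of these, 0 were called in WT over time and 1 (Cdx2, 1.22 ± 0.31, edgeR, adjusted p = 0.0325) was higher in treated null mice. Summed absorptive colonocyte markers went from 3440 and 6138 CPM to 1193 and 2956 CPM in WT, with 2 of 9 called lower, and goblet cell markers from 19614 and 28440 CPM to 8205 and 10093 CPM, with 3 of 8 called lower. In null mice the absorptive sum went from 9224 and 9058 CPM to 7311 and 3502 CPM (2 of 9 called lower, 1 higher) and the goblet sum from 27989 and 23508 CPM to 40600 and 21277 CPM (0 of 8 called, 1 at an unadjusted p under 0.05, edgeR). Summed smooth muscle markers were 7277 and 9968 CPM in untreated and 3723 and 2156 CPM in treated WT mice, with 6 of 9 called lower. In null mice they went from 7183 and 7008 CPM to 5419 and 6169 CPM (0 of 9 called, 3 at an unadjusted p under 0.05, edgeR). The shares of all genes called lower were 4.27% in WT and 6.48% in null mice, and the part of any of these cell types in the falls was not tested.

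**Figure D3:**
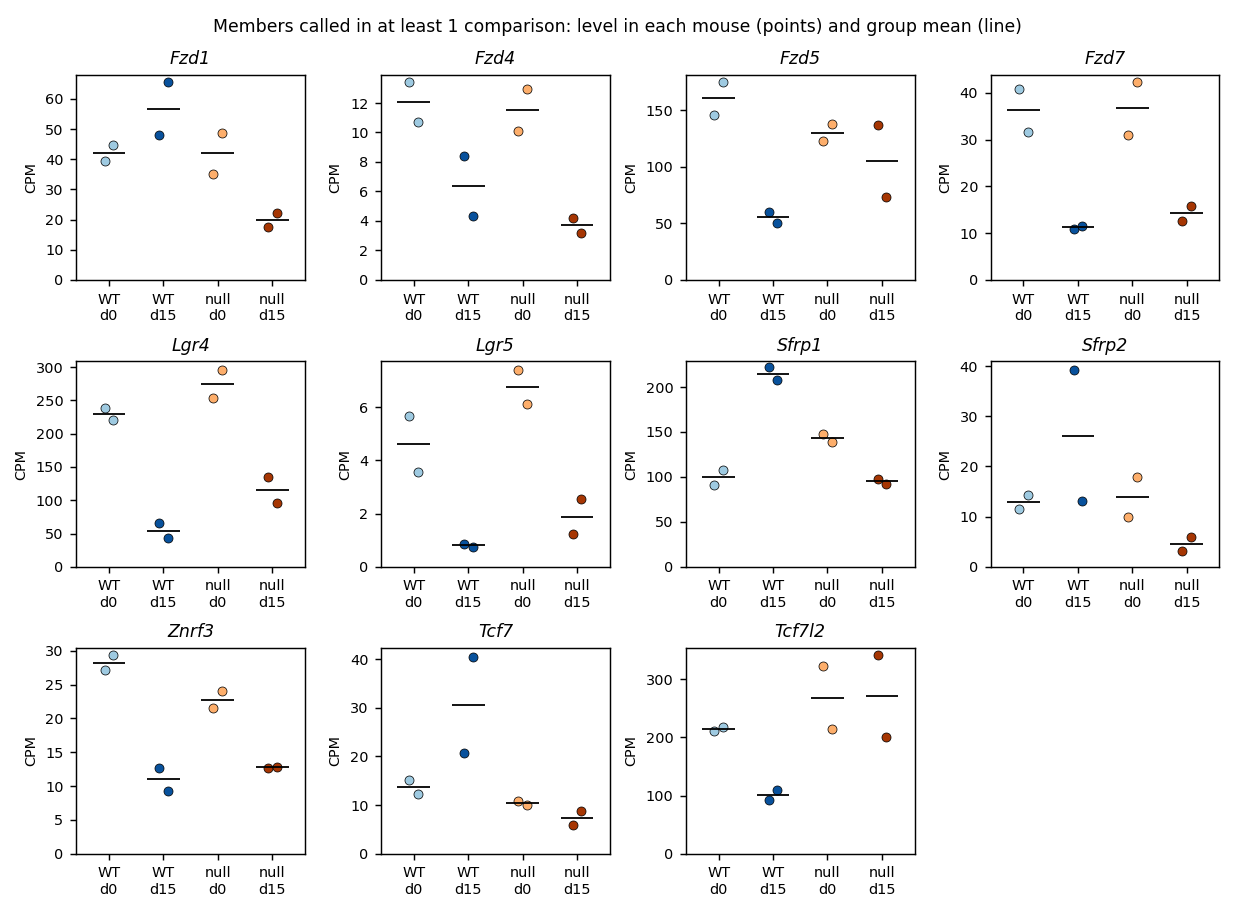
CPM of the 11 members called in at least 1 comparison, in each mouse (points) with the mean of each group of 2 (line), from a y axis starting at 0. Lgr4, Lgr5, Fzd4, Fzd7 and Znrf3 are lower in all 4 treated mice than in all 4 untreated mice, and Sfrp1 in treated WT mice (222 and 208 CPM) lies above every other mouse.

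Of the secreted inhibitors, which bind Wnt or its co-receptor outside the cell, all 7 in the table were tested. Those called by edgeR were the related proteins Sfrp1 and Sfrp2, both higher in treated WT than in treated null mice, 2 of 7 against 1.25% of all genes. Sfrp4, Sfrp5, Dkk2 and Wif1 were called in no comparison.

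Sfrp1 (chr8:23411502-23449632) was at 222 and 208 CPM in treated WT mice and at 97.2 and 92.6 CPM in treated null mice, a difference of 1.18 ± 0.22 (edgeR, adjusted p = 0.0273). Untreated WT mice were at 91.2 and 108 CPM, below the 147 and 139 CPM of their untreated null counterparts. Treatment thus raised Sfrp1 in WT (1.11 ± 0.22, edgeR, adjusted p = 0.0185), whereas the change in null mice was -0.59 ± 0.22 (edgeR, adjusted p = 0.0919). This was the member with the lowest adjusted p for a difference in change between the genotypes, 1.71 ± 0.31, which did not pass by edgeR (adjusted p = 0.210) and passed by DESeq2 (adjusted p = 0.00415).

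Sfrp2 (chr3:83766321-83774316) was at 39.1 and 13.1 CPM in treated WT mice and at 3.10 and 6.01 CPM in treated null mice, with 11.6 and 14.3 CPM in untreated WT and 9.85 and 18 CPM in untreated null mice. The treated null mice were the lowest of the 8, and 1 treated WT mouse stood above all others while the second lay within the untreated range. The day 15 difference was 2.51 ± 0.58 (edgeR, adjusted p = 0.0490), and its call was lost in 12 of 17 alternative analyses, with adjusted p from 5.41e-04 to 0.267. The fall of Sfrp2 in null mice, -1.56 ± 0.58, did not pass by edgeR (adjusted p = 0.0992) and passed by DESeq2 (-1.58, adjusted p = 0.0397). Dkk3, a divergent Dickkopf protein, was at 66.2 and 44.3 CPM in treated WT mice and at 23.3 and 28.2 CPM in treated null mice (1.10 ± 0.29, edgeR, adjusted p = 0.0646), and DESeq2 called it. Together the 4 Sfrp genes summed to 72.1 and 54.6 CPM per kb in treated WT mice and to 26.6 and 26.1 in treated null mice, against 28.0 to 43.5 at day 0.

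Sfrp1 and Sfrp2 are typical products of stromal cells. Summed fibroblast markers were 3555 and 3211 CPM in treated WT mice and 815 and 2389 CPM in treated null mice, with 3868 and 1502 CPM in untreated WT and 1275 and 1681 CPM in untreated null mice. Of the 13 fibroblast markers 0 were called between genotypes at day 15 by edgeR, 4 had an unadjusted p under 0.05 (against 23.2% of all genes) and 12 were higher in WT, and the part of fibroblast content in the Sfrp differences was not tested.

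The feedback inhibitors act inside the responding cell or on its membrane. Znrf3 (chr11:5276324-5444847), a ubiquitin ligase that clears Frizzled and is itself a Wnt target, was at 27.1 and 29.4 CPM in untreated WT mice and at 12.7 and 9.29 CPM after treatment (-1.36 ± 0.30, edgeR, adjusted p = 0.0290). In null mice it went from 21.5 and 24.1 CPM to 12.7 and 12.8 CPM without passing (-0.83 ± 0.31, edgeR, adjusted p = 0.0946). All 4 treated mice lay below all 4 untreated mice, and at day 15 the genotypes differed by -0.21 ± 0.30 (edgeR, adjusted p = 0.710).

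Apc, the scaffold of the complex that degrades beta-catenin, was at 173 and 161 CPM in untreated WT, 98.6 and 90.8 CPM in treated WT, 170 and 224 CPM in untreated null and 103 and 96.8 CPM in treated null mice. Its adjusted p passed in null mice (0.0279 by edgeR), but its log2 change of -0.98 ± 0.23 was just under the fold threshold, and in WT it was -0.82 ± 0.23 (edgeR, adjusted p = 0.0556). Axin2, the most widely used readout of beta-catenin activity, was at 36.7 and 50.8 CPM in untreated WT and at 35.6 and 17.9 CPM in treated WT mice. In null mice it was at 31.1 and 55.7 CPM at day 0 and at 54.1 and 37.4 CPM at day 15. Treated WT mice lay below treated null mice for Axin2, by -0.77 ± 0.40, which did not pass (edgeR, adjusted p = 0.276). Axin1, the scaffold related to Axin2 and the most abundant member of this role per kilobase (14.3 CPM per kb), was at 68.2 and 62.7 CPM in untreated and 72.0 and 55.2 CPM in treated WT mice, and at 49.5 and 40.6 CPM and then 49.8 and 39.6 CPM in null mice. WT mice lay above null mice of the same day for Axin1 without passing (0.51 ± 0.25 at day 15, edgeR, adjusted p = 0.257), and Rnf43 and Nkd1 were called in no comparison.

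Of the 4 nuclear effectors, 2 were called between genotypes at day 15, against 3.17% of all genes, 1 higher in WT (against 1.25%) and 1 lower (against 1.91%). Ctnnb1 itself, encoding beta-catenin, had the highest level per kilobase of all members (91.4 CPM per kb over the 8 mice, beside 31.6 for Sfrp1, the next) and was called in no comparison, with 377 and 428 CPM in treated WT and 352 and 498 CPM in treated null mice, after 462 and 519 CPM and 505 and 654 CPM at day 0 (day 15 difference -0.08 ± 0.28, edgeR, adjusted p = 0.896). Its abundance as mRNA does not measure its activity, which is set by protein stability.

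Tcf7 (chr11:52252371-52283014), which encodes TCF1 and is also abundant in T cells, was at 20.8 and 40.5 CPM in treated WT mice and at 5.89 and 8.82 CPM in treated null mice. Untreated mice lay between, with 15.1 and 12.3 CPM for WT and with 10.8 and 10.1 CPM for null mice. The groups did not overlap and differed by 2.05 ± 0.41 at day 15 (edgeR, adjusted p = 0.0328), whereas the changes over time of 1.15 ± 0.40 in WT (edgeR, adjusted p = 0.0986) and -0.50 ± 0.41 in null mice (edgeR, adjusted p = 0.431) did not pass. Summed leukocyte markers, a list not specific to T cells, were 1477 and 2807 CPM in treated WT and 566 and 1018 CPM in treated null mice. Of these 10 markers 0 were called, 8 had an unadjusted p under 0.05 by edgeR (against 23.2% of all genes) and all 10 were higher in WT. Untreated WT mice had sums of 1171 and 406 CPM and untreated null mice 538 and 514 CPM, and the part of leukocyte content in the difference was not tested.

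Tcf7l2 (chr19:55741820-55933654), which encodes TCF4, the main partner of beta-catenin in the intestinal epithelium, went the other way. It was at 92.7 and 109 CPM in treated WT mice and at 341 and 200 CPM in treated null mice, against 211 and 217 CPM in untreated WT and 323 and 214 CPM in untreated null mice. Treated WT mice were the lowest of the 8, and treated null mice spanned the untreated range. The day 15 difference was -1.42 ± 0.31 (edgeR, adjusted p = 0.0442), and its call was lost in 10 of 17 alternatives (adjusted p from 0.00106 to 0.247). The change in WT, -1.08 ± 0.31, missed by edgeR (adjusted p = 0.0591) and passed by DESeq2 (adjusted p = 0.0170). At day 15 all 12 epithelial markers (median log2 difference -0.57), all 9 absorptive colonocyte markers (-0.84) and 7 of 8 goblet cell markers (-1.45) were also lower in WT. Of these, 0, 1 and 3 were called by edgeR, against 1.91% of all genes called lower. At an unadjusted p under 0.05 there were 0, 3 and 6 of them, against 23.2% of all genes. The part of epithelial content in the Tcf7l2 difference was not tested. Lef1 was at 11.5 and 15.4 CPM in treated WT and at 6.98 and 13.4 CPM in treated null mice, which overlapped.

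Within each mouse, Tcf7 made up 14.1% and 24.6% of the summed CPM per kb of the 4 TCF and LEF genes in treated WT mice, and 2.37% and 5.04% in treated null mice. In untreated mice it made up 11.2% and 7.29% in WT and 5.83% and 9.21% in null mice. Tcf7l2 gave 18.8% and 19.9% in treated WT mice and 34.1% to 58.7% in the other 6. The sum includes Tcf7l1, which encodes TCF3, a largely repressive factor of the family, and is no member by the rule. Tcf7l1 gave 31.0% to 64.7% of the sum and was at 143 and 130 CPM in treated WT and 208 and 153 CPM in treated null mice (-0.41 ± 0.37, edgeR, adjusted p = 0.546), and antisense genes overlap it, whose reads cannot be told apart where the strand setting is not given. These shares rest on 2 mice per group and carry no test.

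**Figure D4:**
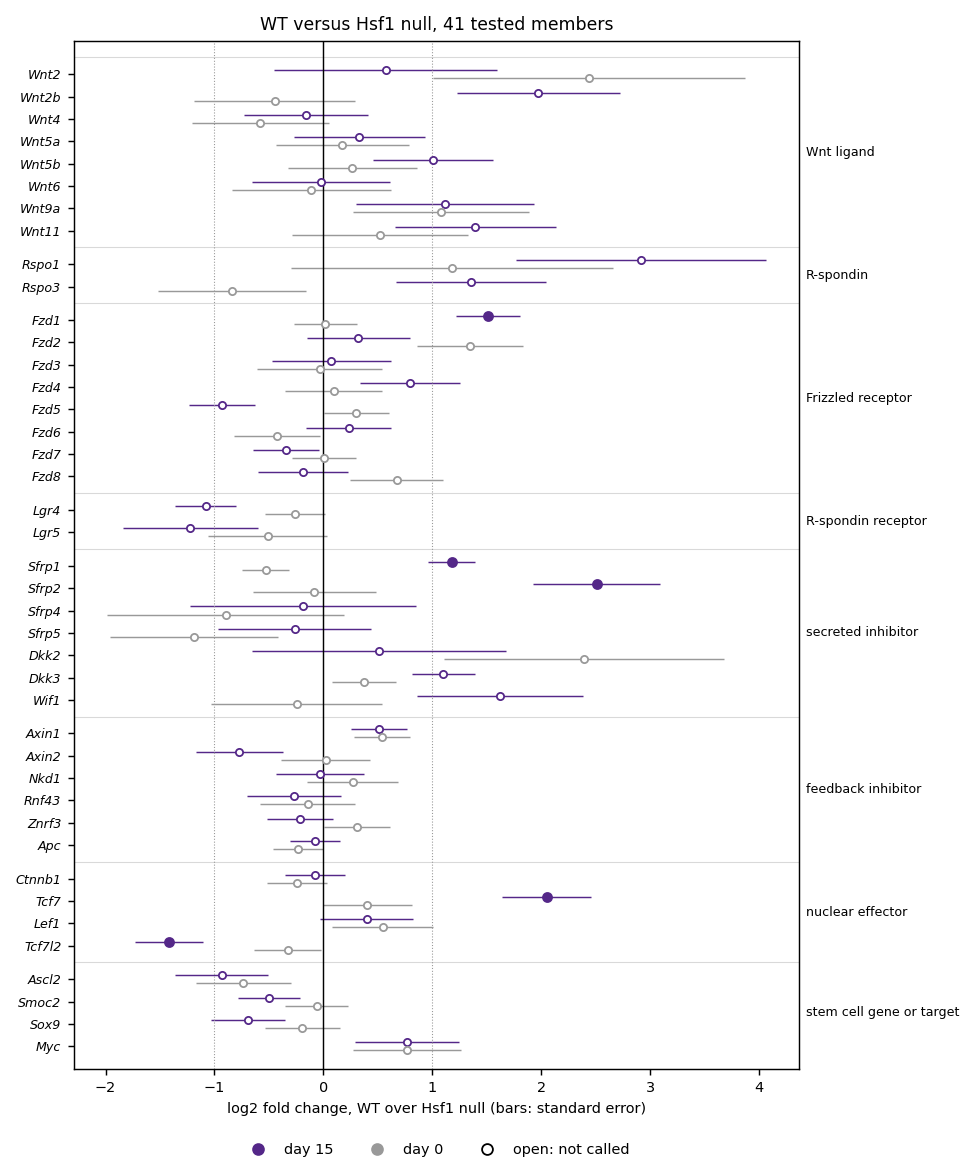
WT minus Hsf1 null log2 fold change of the 41 tested members at day 15 (purple) and day 0 (grey), grouped by role, with bars for standard errors and filled points for called genes. At day 15 Fzd1, Sfrp1, Sfrp2 and Tcf7 are filled to the right of 1 and Tcf7l2 to the left of -1, and no grey point is filled.

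Of the 5 members that differed between genotypes at day 15, 4 have promoter windows in the RefSeq table used (GRCm38.p6), and for Fzd1, Sfrp2 and Tcf7l2 the 250 bases before each start are shown because HSF1 and the TCF factors act at promoters through short known motifs. Capitals mark matches to CTTTGA or CTTTGT, the TCF/LEF core, and to GAANNTTC or TTCNNGAA, pairs of the inverted units that HSF1 binds, each sought on both strands and counted separately where they overlap. The windows lie at chr5:4758217-4758466 on the minus strand for Fzd1, chr3:83766071-83766320 on the plus strand for Sfrp2, and chr19:55741560-55741809 and chr19:55895071-55895320 on the plus strand for the outer and the internal start of Tcf7l2.
Fzd1: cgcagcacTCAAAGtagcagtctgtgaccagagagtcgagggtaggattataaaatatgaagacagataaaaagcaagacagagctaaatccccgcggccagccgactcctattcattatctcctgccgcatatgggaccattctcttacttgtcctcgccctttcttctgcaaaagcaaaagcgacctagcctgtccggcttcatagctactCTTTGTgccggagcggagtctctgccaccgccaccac
Sfrp2: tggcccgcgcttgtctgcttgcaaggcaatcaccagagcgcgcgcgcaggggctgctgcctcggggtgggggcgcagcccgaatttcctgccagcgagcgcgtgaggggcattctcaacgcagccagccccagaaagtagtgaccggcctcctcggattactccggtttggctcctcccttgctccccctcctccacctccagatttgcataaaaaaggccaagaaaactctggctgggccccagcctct
Tcf7l2, outer start: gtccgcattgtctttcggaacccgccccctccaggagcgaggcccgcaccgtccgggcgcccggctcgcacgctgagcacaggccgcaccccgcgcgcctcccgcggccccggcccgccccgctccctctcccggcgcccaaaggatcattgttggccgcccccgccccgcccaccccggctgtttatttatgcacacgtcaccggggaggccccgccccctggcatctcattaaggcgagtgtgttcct
Tcf7l2, internal start: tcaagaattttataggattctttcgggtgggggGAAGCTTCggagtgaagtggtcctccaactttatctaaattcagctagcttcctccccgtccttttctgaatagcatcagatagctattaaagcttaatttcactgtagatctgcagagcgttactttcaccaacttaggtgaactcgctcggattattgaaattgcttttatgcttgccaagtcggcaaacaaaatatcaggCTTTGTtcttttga
Fzd1 held 2 TCF/LEF cores, and the internal window of Tcf7l2 held 1 core and 1 GAANNTTC match, whereas the window of Sfrp2 and the outer one of Tcf7l2 held neither. The 2 windows of Tcf7, which are not shown, held neither motif. Over all 30 members with a window, 7 of 40 windows held a TCF/LEF core, 2 held GAANNTTC and 1 held TTCNNGAA, against 27.6%, 6.69% and 7.17% of the 32851 windows in the table. A match describes letters and not a binding site.

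The 4 stem cell genes and targets were called in no comparison by edgeR, with 2 of 4 at an unadjusted p under 0.05 in WT over time (against 27.6% of all genes) and 0 of 4 in the others. Ascl2, the transcription factor that maintains Lgr5 stem cells, was at 10.4 and 7.28 CPM in treated WT mice and at 17.4 and 16.6 CPM in treated null mice, without overlap (-0.93 ± 0.43, edgeR, adjusted p = 0.222). Sox9, a crypt base transcription factor, was at 75.7 and 133 CPM in untreated WT and at 43.5 and 63.4 CPM in treated WT mice (-0.95 ± 0.34, edgeR, adjusted p = 0.109), and in null mice at 93.4 and 145 CPM and then 97.5 and 75.2 CPM. Ascl2 in untreated mice was at 10.6 and 15.1 CPM in WT and at 28.4 and 12.6 CPM in null mice. Both genes were lowest in treated WT mice, and neither difference passed. For Ascl2 the higher treated WT value (10.4) lay beside the lower untreated WT value (10.6). Smoc2, a stem cell signature gene, was at 53.2 and 45.6 CPM in untreated WT and at 30.1 and 25.9 CPM in treated WT mice (-0.82 ± 0.29, edgeR, adjusted p = 0.101). In null mice Smoc2 went from 44.7 and 59.3 CPM to 31.6 and 47.6 CPM, with overlap (-0.38 ± 0.29, edgeR, adjusted p = 0.383). Myc, the growth regulator downstream of beta-catenin, was at 39.1 and 47.2 CPM in untreated and 24.2 and 64.5 CPM in treated WT mice, and at 20.6 and 30.5 CPM and then 16.6 and 35.3 CPM in null mice. The day 15 groups overlapped (0.77 ± 0.48, edgeR, adjusted p = 0.362), and the change over time was 0.04 ± 0.48 in WT and 0.04 ± 0.49 in null mice. Myc lies 14.5 Mb from Hsf1 on chromosome 15, where DNA linked to the targeted allele and the loss of HSF1 cannot be told apart.

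Of 57 other genes of the Wnt pathway listed, 54 were tested and 1 was called between genotypes at day 15, below the 3.17% of all genes, namely Ctnnbip1, an inhibitor that keeps beta-catenin from TCF factors, at 20.0 and 15 CPM in treated WT and 55.0 and 48.1 CPM in treated null mice (-1.56 ± 0.29, edgeR, adjusted p = 0.0276). Over time, WT mice had 2 of 54 called, below the 7.74% of all genes, and both were lower, Wls, which carries Wnt ligands to the cell surface (-1.35 ± 0.33), and Tle4, a co-repressor of TCF factors (-1.17 ± 0.29). Null mice had 5 of 54 called, below the 11.8% of all genes, with 3 higher, Gsk3a (1.09 ± 0.27), Ctnnbip1 (1.29 ± 0.29) and Pygo2 (1.36 ± 0.24), and 2 lower, Csnk1a1 (-1.38 ± 0.23) and Tle4 (-1.28 ± 0.29). Gsk3a and Csnk1a1 encode kinases that mark beta-catenin for destruction, and Pygo2 encodes a nuclear cofactor of beta-catenin. The median log2 fold change of the list at day 15 was 0.18, beside 0.04 over all genes and 0.23 over the members.

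Of 22 tested crypt target and stem or progenitor genes, 2 were called lower in WT than null mice at day 15, against 1.91% of all genes. Reg4, a marker of deep crypt secretory cells that support colonic stem cells, was at 206 and 188 CPM in treated WT and at 754 and 1150 CPM in treated null mice (-2.27 ± 0.29, edgeR, adjusted p = 0.0137), and Rnf32 was at 4.26 and 3.27 CPM against 28.7 and 18.2 CPM (-2.63 ± 0.47, edgeR, adjusted p = 0.0240). Over time 3 of 22 were called in WT, against 7.74% of all genes. Kit, which marks deep crypt secretory cells and also the pacemaker cells of the gut muscle layer, fell (-1.25 ± 0.25, edgeR, adjusted p = 0.0220), and all 9 smooth muscle markers were lower in the same comparison, with 6 called, whose part in the Kit fall was not tested. Rnf32 fell as well, while the metalloproteinase gene Mmp7 rose from at most 0.196 CPM to 6.87 and 3.69 CPM (edgeR, adjusted p = 0.0166). In null mice 0 of 22 were called over time by edgeR (against 11.8% of all genes), with 8 at an unadjusted p under 0.05 (against 32.6%). Summed goblet cell markers were 8205 and 10093 CPM in treated WT and 40600 and 21277 CPM in treated null mice, with 3 of 8 called lower in WT, and their part in the Reg4 difference was not tested.

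Genes of the regenerating epithelium, which injured crypts express in place of the stem cell programme, were also listed. Among the 12 tested, the genes called in WT mice included Ly6a (3.23 ± 0.41) and Krt7 (1.68 ± 0.30), both higher at day 15, and Ctgf (-2.36 ± 0.54), which was lower, while null mice had 2 of 12 called, Ly6a (2.0 ± 0.39) and Krt7 (1.48 ± 0.30), both higher, against 5.3% of all genes. Between genotypes at day 15, 0 of 12 were called by edgeR, with 3 at an unadjusted p under 0.05, near the 23.2% of all genes, and all 12 were higher in WT, with a median log2 difference of 0.65 beside 0.04 over all genes. Ly6a lies 1.48 Mb and Krt7 24.9 Mb from Hsf1 on chromosome 15, and Ly6a has close relatives beside it that can share reads.

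BMP signals oppose Wnt along the crypt axis, and 0 of 11 tested ligands and antagonists were called between genotypes at day 15 by edgeR (against 3.17% of all genes), with 4 at an unadjusted p under 0.05 (against 23.2%). The antagonist Grem1 had the largest difference, 22.3 and 79.8 CPM in treated WT against 1.55 and 6.01 CPM in treated null mice (3.73 ± 0.89, edgeR, adjusted p = 0.0545). Over time 3 of 11 were called in WT (against 7.74% of all genes) and 2 of 11 in null mice (against 11.8%). The antagonist Chrdl2 rose in WT (3.75 ± 0.61) and null mice (2.42 ± 0.60), Chrdl1 fell in both (-2.10 ± 0.55 and -3.86 ± 0.63), and the ligand Bmp2 fell in WT (-2.39 ± 0.50).

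**Figure D5:**
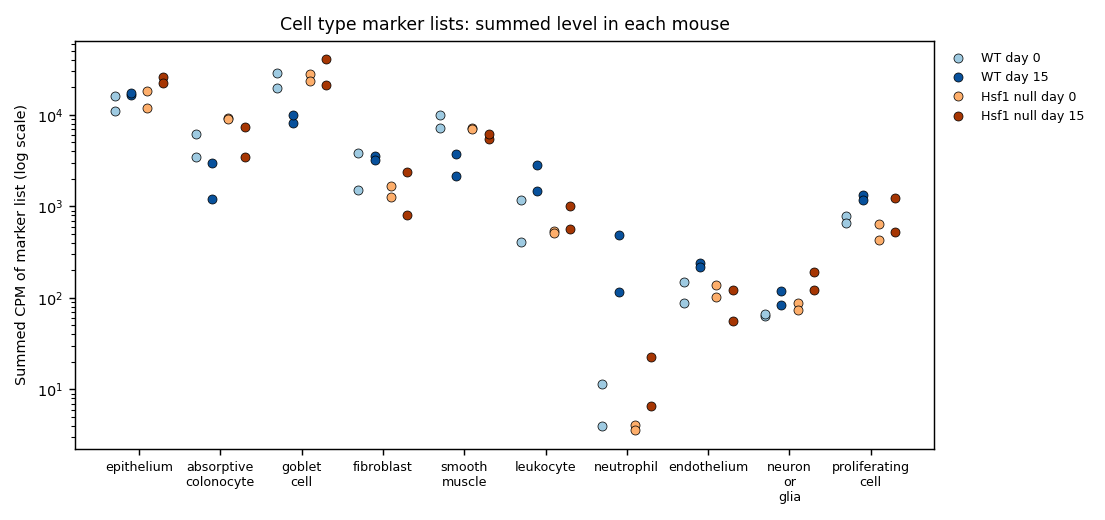
Summed CPM of 10 cell type marker lists in each mouse, on a log scale, with the 4 groups by colour. Neutrophil markers reach 115 and 484 CPM in treated WT mice and 6.51 and 22.7 CPM in treated null mice, goblet and smooth muscle markers are lowest in treated WT mice, and epithelial markers are highest in treated null mice.

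The calls rest on 2 mice per group, and single mice decide many of them. Leaving out either untreated null mouse, WT day 15 replicate 2 or Hsf1 null day 15 replicate 1 left 0 of the 5 genotype calls at day 15, while omitting either untreated WT mouse left 3 (Fzd1, Sfrp1, Tcf7), WT day 15 replicate 1 left 2 (Fzd1, Tcf7) and Hsf1 null day 15 replicate 2 left 4, with Sfrp2 lost and Fzd5 and Lgr4 newly called. For the WT change, omitting WT day 15 replicate 2 ended every call. Omitting WT day 0 replicate 2 ended all but Lgr4, and WT day 0 replicate 1 all but Fzd5 and Lgr4. Without WT day 15 replicate 1, Lgr5, Sfrp1 and Znrf3 were lost and Fzd2 was newly called as lower. Calls of Lgr5, Sfrp1 and Znrf3 were thus lost whichever WT mouse was omitted. For the null change, omitting Hsf1 null day 0 replicate 2 or Hsf1 null day 15 replicate 2 ended every call. Omitting either untreated WT mouse ended those of Fzd1 and Fzd4. Omitting Hsf1 null day 15 replicate 1 ended all but that of Lgr4, with Wnt4 newly called as higher. Fitting only the day 15 groups left 0 of the 5 genotype calls (12 members at an unadjusted p under 0.05). Leaving out both shallowest libraries left 1 mouse in each untreated group and ended every call of a member in these 3 comparisons. The calls of listed genes that are no members were not followed through these omissions. No called value changed sign in any of 17 alternatives: across them the Lgr4 change stayed between -2.42 and -1.80 in WT and between -1.52 and -1.03 in null mice, and the day 15 differences between 1.26 and 1.72 for Fzd1, 1.12 and 1.23 for Sfrp1, 1.51 and 3.09 for Sfrp2, 1.49 and 2.59 for Tcf7, and -1.75 and -0.99 for Tcf7l2.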

How the data were processed

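Poly(A) RNA of distal colon from 8 mice was prepared with the SENSE mRNA-Seq kit, and per the labels the authors aligned reads with STAR to mm10 and normalized with DESeq2; the gene counting tool, annotation and strand setting are not given in the sources used here. The authors deposited a table of raw counts per gene symbol, which was used for every result, and a table of normalized values, which equals those counts divided by DESeq2 size factors and is treated as a score used only in that check; 0 columns belonged to no sample. Groups came from the sample labels, and 15276 symbols matched GENCODE M21 for coordinates and exon lengths.

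Tests covered genes whose normalized counts averaged over 5 and used edgeR 4.0.16 (TMM, glmQLFit and glmQLFTest, 1 model of 4 groups, prior degrees of freedom 5.97) in R 4.3.3, in 5 comparisons. A call needed a Benjamini-Hochberg adjusted p under 0.05 over all tested genes and a log2 fold change above 1. The labels do not state that replicates differ in litter or batch, so p-values measure the spread between these mice. On data simulated for the day 15 comparison with 14371 genes, edgeR recovered 74 of 100 genes changed by 2 and 88 of 100 changed by 3 on the log2 scale, with 13 false calls. Members and gene lists were chosen with earlier results of these data known, and no list was tested as a set. Named in full were members called in any comparison, Lgr5, Axin2, Ascl2, Ctnnb1, Myc and Rspo3, and in each role the member with the highest level per kb and the one with the largest day 15 difference; other members are given by counts and ranges, and genes of the other lists where called, apart from a result that is not reported here. Genes such as Fzd2, Smoc2, Dkk3, Tcf7l1 or Grem1 that fall outside that rule were chosen after their values were seen. Alternatives were DESeq2 1.42.0, its size factors, 2 other filters, a replicate block, fits of only the groups compared, reads thinned to the smallest library, no fold threshold and leaving out each library. Promoter windows came from RefSeq.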

Additional observations from a re-analysis of the deposited data

How the results depend on the processing

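Of 1759 alternative values of the named genes, 97 lost their call, 23 gained one and 1639 were counted as unchanged. Of the called values 0 reversed, while a change of sign was not counted for values that were not called. At day 15 between genotypes, where 5 members were called, 3 remained with a replicate block (Fzd1, Sfrp1, Tcf7) and 0 when only the groups compared were fitted (12 at an unadjusted p under 0.05). Leaving out both shallowest libraries, chosen after seeing the data, left 1 mouse in each untreated group. It ended every call of a member in this comparison and in both changes over time. When only the groups compared were fitted, the null change kept 2 of 4 calls (Fzd7, Lgr4). The difference in change, with 0 members called, gave 1 (Sfrp1) by DESeq2. Leaving out 1 library gave 0 to 6 members between genotypes at day 15, 0 to 8 for WT and 0 to 5 for null mice over time, and 0 throughout for day 0 and the difference in change. The cause of these shifts was not tested.

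Over all genes, the 455 called at day 15 became 1177 by DESeq2, 343 with the replicate block, 6 in the groups compared alone and 18 without both shallowest libraries, and the 1112 called in WT became 1735 by DESeq2 and 4 without those libraries, while the 1692 in null mice became 0 without them. The single gene called in the difference in change became 116 by DESeq2, and 0 genes called at day 0 became 17. Leaving out 1 library moved these counts to 12 to 871 between genotypes at day 15 (12 without either untreated null mouse, 19 without WT day 15 replicate 2, 30 without Hsf1 null day 15 replicate 1, 871 without replicate 2 of that group), 113 to 1331 in WT (113 without WT day 15 replicate 2, 142 without WT day 0 replicate 2, 486 without WT day 0 replicate 1), 0 to 1888 in null mice (0 without Hsf1 null day 0 replicate 2, 483 and 348 without Hsf1 null day 15 replicates 1 and 2), 0 to 17 at day 0 (17 without WT day 0 replicate 2) and 0 to 50 for the difference in change (50 without Hsf1 null day 15 replicate 2), so the shares of all genes given beside the members move with single libraries too. Same-numbered mice correlated in their deviations at -0.29 to 0.15, and the numbers were not taken to pair the mice, since only the pairs without WT day 0 exceeded 0.1. The block moved the WT count from 6 to 5 and the null count from 4 to 3. With the WT day 0 numbers exchanged, chosen after seeing the data, the block called 7, 8 and 5 members in the 3 comparisons and 1 in the difference in change, and 1314, 1856, 2297 and 54 of all genes. Libraries of 2553348 to 12440257 reads limit the genes near the count filter, such as Lgr5 and Rspo1.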
